A study of Mus musculus with 23 samples.

Results

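The nuclear genes for the proteins of the mitochondrial ribosome were followed from stem cells to mature mouse oocytes, by a culture route and in the animal. They were taken by symbol, as every gene named Mrpl or Mrps followed by a number, with pseudogenes dropped. This gave 77 genes of the 22784 in the expression table, 48 named for the large subunit (Mrpl) and 29 for the small subunit (Mrps). Poly(A) RNA of 23 samples in 8 groups had been sequenced. The 5 culture groups came from the strain cross C57BL/6 X 129. They were female embryonic stem (ES) cells in 2i+LIF medium, PGCLCs (cells made in culture to resemble primordial germ cells) induced for 6 days from epiblast-like cells, and PGCLCs reaggregated for 3 days with somatic cells of female E12.5 gonads. The culture route went on to oocytes of secondary follicles after 21 days with the same kind of gonadal cells, and to metaphase II (MII) oocytes, for which follicles were grown for 11 days and the oocytes matured for 16 hours. The estrogen receptor blocker ICI182780 was in the medium during part of the ovary culture, and follicles were grown with FSH and, at first, BMP15 and GDF9. The 3 animal groups came from B6D2F1 mice. They were the primordial germ cells, or PGCs, at E12.5 and secondary follicle oocytes at 8 days after birth, both sorted by BVSC transgenes, and MII oocytes, taken from 8-week-old females. There were 2 samples of day 6 PGCLCs and 3 of each of the other 7 groups. Libraries of secondary follicle oocytes were made from 337 to 812 cells and those of MII oocytes from 99 to 134, against 5300 to 15000 for the ES cells and PGCLCs. Strain and route cannot be told apart, since all culture groups had one background and all animal groups the other.

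Mitochondria hold their own genome, which codes for a few subunits of the respiratory chain and for the RNAs of a separate ribosome. All protein parts of that ribosome are made from nuclear genes in the cytosol and imported. The small subunit reads the messenger RNA and the large subunit forms the peptide bonds beside the inner membrane. Some of the proteins have a counterpart in the bacterial ribosome and others occur only in mitochondria. Growing oocytes store mitochondria and messenger RNA for the embryo, and many stored transcripts are lost or change their poly(A) tail when meiosis resumes.

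The deposited table held 1 FPKM value (fragments per kilobase of transcript, scaled to library size) per gene and group and no value per sample. No difference below therefore has a replicate check, no test was possible, and depth is unknown. The groups enter as differences of log2(FPKM + 1), a scale that understates changes of genes with low values. A gene is called higher or lower past 2-fold where that difference was at least 1, over the 14242 genes with at least 1 FPKM in at least 1 group. Of the 77 genes, 76 reached that floor and 73 reached 10 FPKM. FPKM is a share of each library, and its sum over all genes ran from 268720 in reaggregated PGCLCs to 975407 in animal MII oocytes. In a bulk sample, fewer cells of a type and less RNA per cell cannot be told apart, and after poly(A) selection neither can less RNA and shorter tails. All 8 oocyte markers checked, among them Zp3 and Gdf9, were above 1 FPKM in the 4 oocyte groups.

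The mitoribosome genes were widely expressed before meiosis resumed and low at MII. The median level over the 77 genes was 41.0 FPKM in ES cells, 36.4 after 6 days of induction, 32.3 after reaggregation, 30.4 in culture secondary follicle oocytes and 5.82 in culture MII oocytes. In the animal it was 38.4 FPKM in E12.5 PGCs, 27.6 in secondary follicle oocytes and 3.94 in MII oocytes. The medians of the 6 groups before MII thus lay close together and those of the MII oocytes far below them. Summed over the 77 genes, the share of all FPKM was 1.17% in ES cells, 1.25% in reaggregated PGCLCs, 0.786% in culture secondary follicle oocytes and 0.218% in culture MII oocytes. The same share was 1.35% in E12.5 PGCs, 0.712% in animal secondary follicle oocytes and 0.154% in animal MII oocytes. Genes under 1 FPKM numbered 9 in culture MII oocytes and 21 in animal MII oocytes, against 1 or 2 in each of the other groups.

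**Figure D1:**
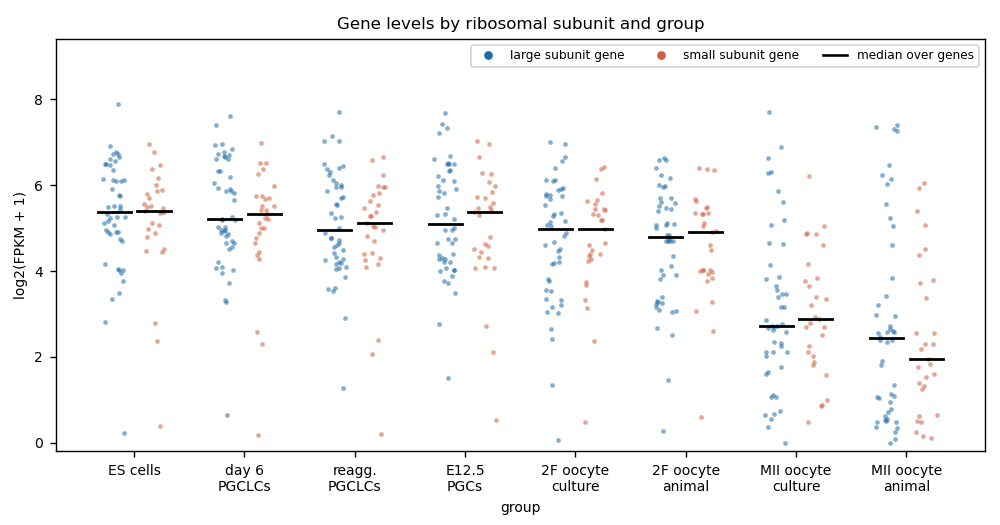
Level of each gene as log2(FPKM + 1), with 1 point per gene and group, for large subunit genes (blue) and small subunit genes (orange), and a black line at the median over genes. Both subunits sat at similar levels up to the secondary follicle oocyte and far lower, with a wider spread, in the MII oocytes, where medians over all 77 genes were 5.82 FPKM in culture and 3.94 FPKM in the animal.

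Large and small subunit genes had similar median levels at every stage before MII. The median of the large subunit genes against that of the small subunit genes was 40.6 against 41.0 FPKM in ES cells, 35.8 against 38.9 in day 6 PGCLCs and 29.9 against 33.8 in reaggregated PGCLCs. It was 33.5 against 40.8 FPKM in E12.5 PGCs, 30.4 against 30.4 in culture secondary follicle oocytes and 26.8 against 29.1 in animal ones. As a ratio of large over small this ran from 0.822 to 1.0 in these 6 groups. At MII the routes differed in this ratio. The large subunit median was 5.58 and the small subunit median 6.34 FPKM in culture MII oocytes, a ratio of 0.88. In animal MII oocytes they were 4.40 and 2.87 FPKM, a ratio of 1.53. The lower quartile ran the other way in that group, at 0.705 FPKM for the large and 1.38 FPKM for the small subunit genes. Of all 77 genes, 21 were under 1 FPKM there. The symbols do not follow the structure in every case: Mrps30 and Mrps18a sit in the large subunit, and Mrps36 belongs to the alpha-ketoglutarate dehydrogenase complex.

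Levels differed widely between the genes. On the mean of log2(FPKM + 1) over the 8 groups, the highest large subunit genes were Mrpl18 at 6.63, Mrpl24 at 6.59, Mrpl34 at 6.14, Mrpl2 at 6.03 and Mrpl14 at 5.97. The lowest of the large subunit genes that reached 10 FPKM were Mrpl41 at 2.67, Mrpl17 at 2.91, Mrpl51 at 2.94, Mrpl11 at 2.99 and Mrpl35 at 3.31. Among small subunit genes the highest were Mrps16 at 5.89, Mrps21 at 5.55, Mrps12 at 5.40, Mrps24 at 5.24 and Mrps26 at 5.20. The lowest of the small subunit genes that reached 10 FPKM were Mrps25 at 2.83, Mrps10 at 2.96, Mrps18b at 3.49, Mrps34 at 3.61 and Mrps31 at 3.92. A pair of symbols was near 0 throughout. Mrpl23 ran from 0.0488 to 1.86 FPKM before MII and was listed at 0 in both MII groups, and Mrps36 stayed at or below 0.523 FPKM in all 8 groups. Both have named pseudogenes in GENCODE release M21 (Mrpl23-ps1, and Mrps36-ps1, Mrps36-ps2 and Mrps36-ps3), as does Mrpl48 (Mrpl48-ps), so reads of these genes could have been shared with a copy and their levels are uncertain. None of these 5 pseudogenes had a row in the table.

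**Figure D2:**
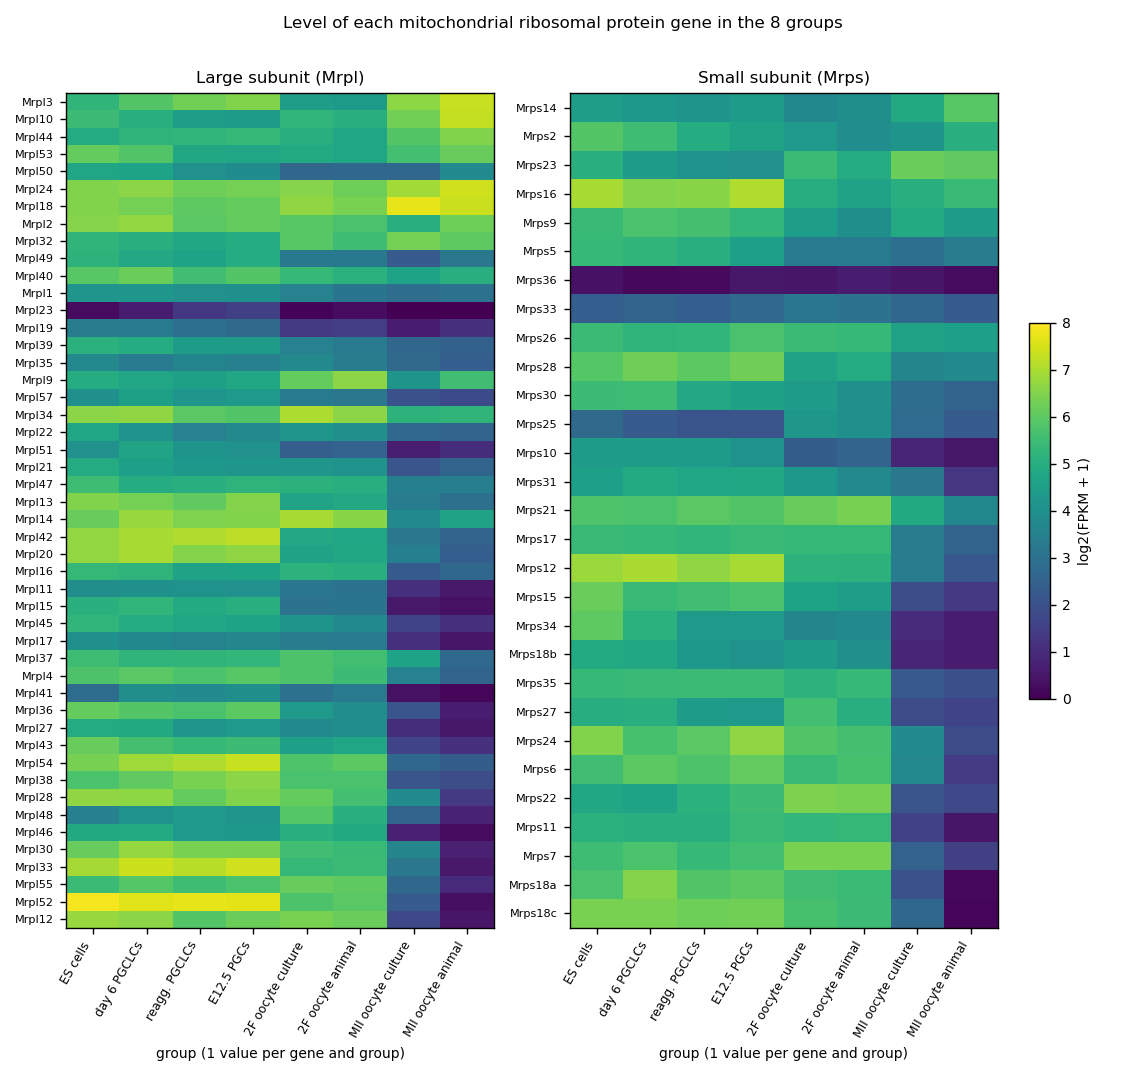
Level of each of the 77 genes as log2(FPKM + 1), from dark (0) to bright (8), with a row per gene and a column per group. Rows run from the highest to the lowest log2 ratio of animal MII over animal secondary follicle oocytes: Mrpl3 and Mrps14 stand at the top of the large and small subunit panels, and Mrpl12 and Mrps18c at the bottom.

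The first comparison sets reaggregated PGCLCs beside the embryo's own germ cells at E12.5. No mitoribosome gene passed 2-fold in either direction among 76, where over all genes 1.39% were higher and 0.786% lower, 2.18% in all. The median log2 ratio of reaggregated PGCLCs over E12.5 PGCs was -0.11, against 0 over all genes, and 51 of the 76 ratios were below 0. The most extreme ratios were those of Mrps24, the counterpart of bacterial S3, with 61.0 FPKM in reaggregated PGCLCs and 100.0 FPKM in E12.5 PGCs (-0.71), and of Mrps5, with 32.3 FPKM in reaggregated PGCLCs and 22.0 FPKM in E12.5 PGCs (0.54). Across the 77 genes the levels of both groups had a Spearman correlation of 0.98. The median absolute log2 difference per gene was 0.16.

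The secondary follicle oocytes of both routes were also close. Again 0 of 76 genes passed 2-fold, with 1.74% of all genes higher and 0.66% lower in culture, 2.4% in all. The median log2 ratio of culture over animal was 0.12, against 0 over all genes, with 50 ratios above 0. Mrpl48, a mitochondria-specific protein of the large subunit, was at the upper end with 58.0 FPKM in culture oocytes and 32.8 FPKM in animal oocytes (0.80). Mrpl9 was at the lower end with 68.4 FPKM in culture oocytes and 95.8 FPKM in animal oocytes (-0.48). The Spearman correlation across genes was 0.98, and the median absolute log2 difference 0.18.

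The early steps of the culture route left the mitoribosome genes nearly level. Between ES cells and day 6 PGCLCs, 1 gene was higher past 2-fold and 0 lower, beside 9.63% and 12% of all genes, 21.6% together. The 1 gene was Mrpl41, a mitochondria-specific large subunit protein, with 14.6 FPKM in day 6 PGCLCs and 6.03 FPKM in ES cells, a log2 ratio of 1.15. Between day 6 and reaggregated PGCLCs, 0 genes were higher and 1 lower past 2-fold, beside 5.15% and 5.04% of all genes, 10.2% together. That gene was Mrpl53, another large subunit protein found only in mitochondria, with 26.2 FPKM in reaggregated PGCLCs and 55.3 FPKM in day 6 PGCLCs (-1.05). Most genes were somewhat lower in this second step: 56 of 76 log2 ratios were below 0 and their median was -0.24, against -0.02 over all genes. With all groups scaled to equal sums the median of the genes became -0.02 and that of all genes 0.11.

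A few genes differed over these steps without passing 2-fold at each. Mrps34, needed in mammals for a stable small subunit, had 63.0 FPKM in ES cells, 33.5 after 6 days of induction, 18.8 after reaggregation, 11.7 in culture secondary follicle oocytes and 1.01 in culture MII oocytes. Its level was thus lower at each later stage of the culture route. Mrpl3, whose product lies near the peptidyl transferase centre, had 36.4 FPKM in ES cells, 57.2 after 6 days of induction and 77.9 after reaggregation, higher at each of these stages. Mrps18a, a counterpart of bacterial S18 that sits in the large subunit, had 90.8 FPKM in day 6 PGCLCs and 51.3 FPKM in ES cells (0.81), and after reaggregation 55.8 FPKM, near the ES cell level.

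From germ cells to the oocytes of secondary follicles most mitoribosome genes stayed within 2-fold, and more of the rest were lower than higher. In culture, 9 of 76 genes were higher and 20 lower past 2-fold in secondary follicle oocytes than in reaggregated PGCLCs, beside 25.2% of all genes higher and 26.4% lower, 51.6% together. In the animal, 2 were higher and 26 lower than in E12.5 PGCs, beside 24.3% and 25.9% of all genes, 50.2% together. In percent of the 76, higher genes made up 11.8% in culture and 2.63% in the animal, below the share among all genes. Lower genes made up 26.3% in culture, near the share among all genes, and 34.2% in the animal, above it. The median log2 ratio was -0.31 in culture and -0.54 in the animal, against -0.09 over all genes in each. The steps of the 2 routes share no samples. Of the 20 genes lower in culture all were lower in the animal too, which are 20 of the 26 there, and 2 genes, Mrpl9 and Mrps25, were higher in both. Over all genes, 3138 of the 3755 lower in culture and of the 3683 lower in the animal were lower in both. The Spearman correlation of the log2 ratios of both routes was 0.96 across the 76 genes and 0.95 across all genes. Scaling to equal sums moved the median of all genes from -0.09 to -0.38 in culture and to -0.34 in the animal, and the counts to 3 higher and 29 lower in culture and 2 higher and 36 lower in the animal. Under quantile normalization they were 7 and 30, and 2 and 36.

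Mrpl42 was at the lower end in both routes, with 27.3 FPKM in culture secondary follicle oocytes against 130.0 in reaggregated PGCLCs, and 25.1 FPKM in animal secondary follicle oocytes against 147 in E12.5 PGCs. Mrps16, the counterpart of bacterial S16, in which human mutations cause a fatal mitochondrial disease, had 30.4 FPKM against 95.5 in the culture step, and 23.3 FPKM against 130.0 in the animal step. Mrpl3 had 21.2 FPKM against 77.9 in the culture step and 19.4 FPKM against 89.3 in the animal step. In each of these genes the 2 oocyte groups stood below all 4 groups of ES and germ cells.

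At the other end stood Mrps25, a mitochondria-specific small subunit protein. It had 17.7 FPKM in culture secondary follicle oocytes against 3.19 in reaggregated PGCLCs, and 15.2 FPKM in animal secondary follicle oocytes against 3.34 in E12.5 PGCs, with log2 ratios of 2.16 and 1.90. Mrpl9 had 68.4 FPKM against 22.5 in the culture step and 95.8 FPKM against 26.0 in the animal step (1.56 and 1.84). These oocyte levels were above those of every ES and germ cell group. The other 7 genes higher past 2-fold in culture were Mrpl32, Mrpl34, Mrpl48, Mrps7, Mrps22, Mrps23 and Mrps27, each above 0 but within 2-fold in the animal. Mrps22, in which human mutations cause primary ovarian insufficiency, was one of them, with 85.2 FPKM in culture secondary follicle oocytes against 33.8 in reaggregated PGCLCs, and 80.6 FPKM in animal secondary follicle oocytes against 44.1 in E12.5 PGCs. Its log2 ratios were 1.31 and 0.86. The difference between routes in this step was not tested.

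The transcripts for ribosomal proteins of the cytosol went much lower in this step than those for mitochondrial ones. Of 79 cytosolic ribosomal protein genes that reached 1 FPKM, 69 were lower past 2-fold in culture and 74 in the animal, with 0 higher in either route and medians of -2.31 and -2.23. As a share of all FPKM, the 82 such genes in the table held 0.779% in culture secondary follicle oocytes against 7.05% in reaggregated PGCLCs, and 0.828% in animal secondary follicle oocytes against 6.55% in E12.5 PGCs. The genes for mitochondrial ribosomal proteins held 0.786% against 1.25% in the culture step and 0.712% against 1.35% in the animal step. Many cytosolic ribosomal protein genes have processed copies with which reads can be shared, and Rpl26 was listed at 0 in ES cells, so their single levels are uncertain. The plot of medians places the lists side by side.

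**Figure D3:**
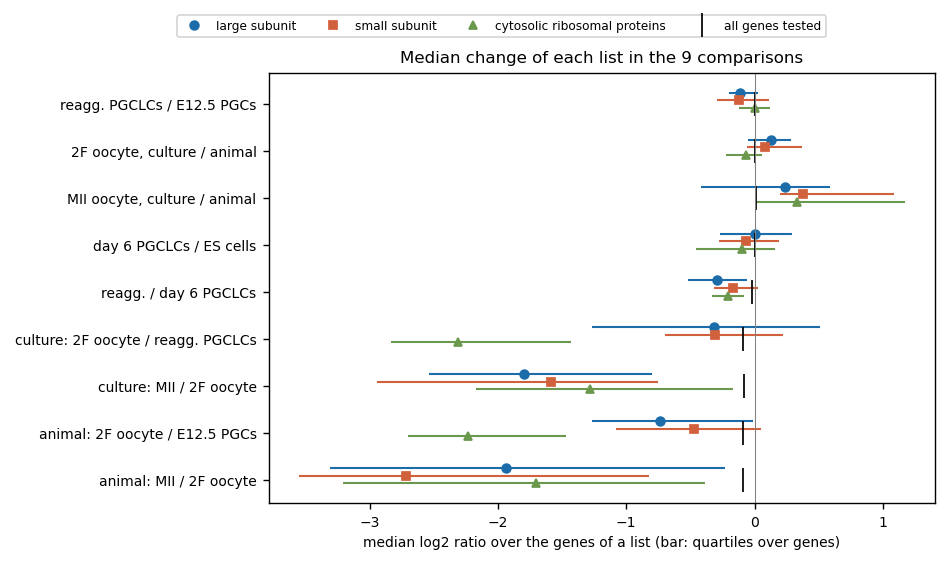
Median log2 ratio over genes in each of the 9 comparisons, for large subunit (blue circles), small subunit (orange squares) and cytosolic ribosomal protein genes (green triangles) and all genes (black bars), with coloured lines over the quartiles of genes. In the steps from germ cell to secondary follicle (2F) oocyte the cytosolic list lay at -2.31 in culture and -2.23 in the animal, far from both mitochondrial subunits, and in the steps to MII all 3 lists were low.

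From secondary follicle to MII oocytes most mitoribosome genes were much lower, while a small set was higher. In culture, 51 of 76 genes were lower and 4 higher past 2-fold, beside 28.6% of all genes lower and 23.9% higher, 52.5% together. In the animal, 52 were lower and 9 higher, beside 33.1% and 28%, 61.1% together. Lower genes thus made up 67.1% of the 76 in culture and 68.4% in the animal, well above the share among all genes. The median log2 ratio was -1.71 in culture and -2.25 in the animal, against -0.08 and -0.09 over all genes. All 51 genes lower in culture were lower in the animal as well, where Mrps28 was the 1 further gene, and among all genes 3713 of the 4070 lower in culture and of the 4715 lower in the animal were shared. The Spearman correlation of the log2 ratios of both routes was 0.90 across the 76 genes and 0.93 across all genes. Scaling to equal sums moved the median of all genes to -0.50 in culture and -0.74 in the animal. It gave 62 genes lower and 1 higher in culture and 61 lower and 1 higher in the animal. Under quantile normalization 50 were lower and 2 higher in culture, and 47 lower and 3 higher in the animal. The genes lower past 2-fold in both routes then numbered 44 rather than 51.

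**Figure D4:**
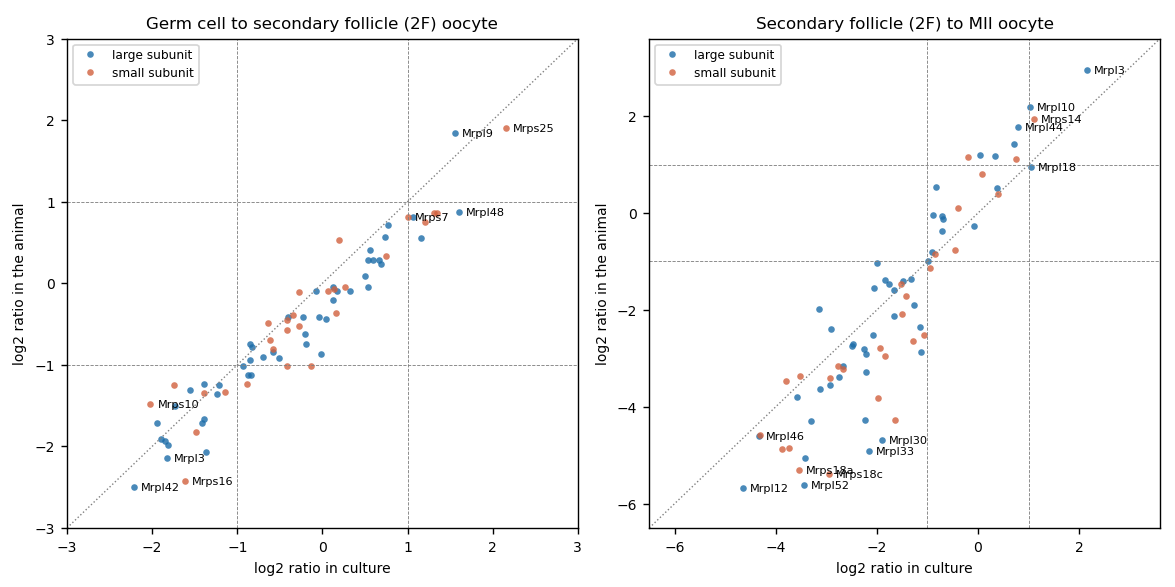
Log2 ratio of each of the 76 genes in culture (x axis) against that in the animal (y axis), for the step from germ cell to secondary follicle (2F) oocyte (left) and from there to the MII oocyte (right), with large subunit genes in blue and small subunit genes in orange. Dashed lines mark 2-fold and the dotted line equal ratios. At left Mrps25 and Mrpl9 lie past 2-fold higher in both routes, and at right 51 genes lie past 2-fold lower in both and Mrpl3, Mrpl10 and Mrps14 past 2-fold higher in both.

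The lowest ratio in both routes was that of Mrpl12, which forms the flexible stalk that recruits translation factors and also binds the mitochondrial RNA polymerase. It had 2.39 FPKM in culture MII oocytes against 83.7 in culture secondary follicle oocytes, and 0.397 FPKM in animal MII oocytes against 70.4 in animal secondary follicle oocytes, log2 ratios of -4.64 and -5.68. Mrpl10, which anchors that stalk, went the other way, with 77.5 FPKM against 37.6 in the culture step and 153 FPKM against 33.1 in the animal step (1.02 and 2.18). Mrpl11, at the base of the stalk, had 1.11 FPKM against 7.90 in the culture step and 0.458 FPKM against 7.30 in the animal step. So of these 3 proteins of the stalk and its base, the transcripts of 2 were lower and of 1 higher in both routes.

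Small subunit genes among those lower at MII included Mrps12, Mrps7 and Mrps22. Mrps12, the counterpart of bacterial S12 in the decoding centre, had 9.25 FPKM in culture MII oocytes against 35.4 in culture secondary follicle oocytes, and 3.51 FPKM in animal MII oocytes against 33.9 in animal secondary follicle oocytes. Mrps7, of the head of the subunit, had 4.67 FPKM against 82.0 in the culture step and 1.88 FPKM against 83.4 in the animal step. Mrps22, which had been high in the secondary follicle oocytes, had 3.36 FPKM at MII in culture and 2.40 FPKM at MII in the animal, log2 ratios of -4.31 and -4.58. All 3 genes stood lower in both MII groups than in any other group. The 3 relatives of bacterial S18 were lower as well: Mrps18a at 3.05 FPKM in culture MII oocytes and 0.117 FPKM in animal MII oocytes, Mrps18b at 0.827 and 0.572 FPKM, and Mrps18c at 5.52 and 0.0727 FPKM, against 20.0 to 49.5 FPKM in culture and 15.3 to 43.8 FPKM in animal secondary follicle oocytes. Mrpl52, which had the highest level of all members in ES cells at 237 FPKM, had 3.97 FPKM in culture MII oocytes against 53.0 in culture secondary follicle oocytes, and 0.269 FPKM in animal MII oocytes against 61.6 in animal secondary follicle oocytes.

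Mrpl46 and Mrps11, a large and a small subunit gene, lie head to head on chromosome 7 and were both among the lowest. Mrpl46 had 0.660 FPKM in culture MII oocytes against 32.6 in culture secondary follicle oocytes, and 0.183 FPKM in animal MII oocytes against 27.8 in animal secondary follicle oocytes. Mrps11 had 1.97 FPKM against 38.7 in the culture step and 0.404 FPKM against 39.5 in the animal step. Being lower past 2-fold in both routes was shared by 51 of the 76 genes. In the growth step the log2 ratios were 0.74 in culture and 0.57 in the animal for Mrpl46, and 0.27 and -0.05 for Mrps11. In the RefSeq table of build GRCm38.p6 their start sites are 42 bases apart on opposite strands, at 78783089 for Mrpl46 on the minus strand and at 78783131 for Mrps11 on the plus strand. No other pair of the matched genes has divergent start sites within 1000 bases. The window of Mrps11, from 250 bases before its start to 50 after (chr7:78782881-78783180, plus strand), therefore holds both start sites and is shown for that reason. Any link of this window to the levels was not tested. Capitals mark a match to AAGATGG, a core of the binding word of the factor YY1, on the opposite strand.
Mrps11: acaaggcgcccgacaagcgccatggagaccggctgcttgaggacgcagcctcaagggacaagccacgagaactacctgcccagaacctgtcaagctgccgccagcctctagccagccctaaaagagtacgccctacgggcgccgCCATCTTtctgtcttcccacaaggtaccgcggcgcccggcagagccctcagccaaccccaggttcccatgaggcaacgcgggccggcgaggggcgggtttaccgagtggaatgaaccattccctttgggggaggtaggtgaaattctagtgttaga

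The genes that were higher at MII were led by Mrpl3. It had 97.9 FPKM in culture MII oocytes against 21.2 in culture secondary follicle oocytes, and 158 FPKM in animal MII oocytes against 19.4 in animal secondary follicle oocytes, log2 ratios of 2.15 and 2.96. Mrpl3 was lower past 2-fold in the growth step and higher past 2-fold in the MII step in both routes. In culture no other gene did both, and in the animal Mrpl50 did, with 5.33 FPKM in secondary follicle oocytes against 13.8 in E12.5 PGCs, and 13.4 FPKM in MII oocytes. Mrps14, the counterpart of bacterial S14, had 27.9 FPKM against 12.4 in the culture step and 60.2 FPKM against 14.9 in the animal step (1.11 and 1.95). Mrpl18 had 209 FPKM in culture MII oocytes, the highest member there, against 100.0 in culture secondary follicle oocytes (1.05), and 162 FPKM in animal MII oocytes against 82.8 in animal secondary follicle oocytes, within 2-fold on this scale (0.96). Mrpl44, which has a ribonuclease III-like fold, had 56.8 FPKM against 32.3 in the culture step and 88.2 FPKM against 25.1 in the animal step (0.80 and 1.77).

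Altogether 12 genes had log2 ratios above 0 in both routes, namely Mrpl3, Mrpl10, Mrpl18, Mrpl24, Mrpl32, Mrpl44, Mrpl50, Mrpl53, Mrps9, Mrps14, Mrps16 and Mrps23. Of these, Mrpl3, Mrpl10 and Mrps14 stayed above 0 in both routes when groups were scaled to equal sums, under quantile normalization and with ratios centred on the median of all genes. The others flipped sign in at least 1 route under equal sums, where Mrpl24, for example, was at -0.48 in culture and -0.29 in the animal, and Mrps23 at -0.05 and -0.32. Mrpl3 alone stayed past 2-fold higher under all 3 scalings, at 1.35 in culture and 1.5 in the animal with equal sums. Signs differed between routes for Mrpl2, Mrps2 and Mrps5, each below 0 in culture and above 0 in the animal. Mrps2 had 16.8 FPKM in culture MII oocytes against 19.3 in culture secondary follicle oocytes, and 32.9 FPKM in animal MII oocytes against 14.3 in animal secondary follicle oocytes.

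The order of the genes by level was kept less in the MII step than in the growth step, and least in the animal. In animal MII oocytes 21 of the 77 genes were under 1 FPKM, where ranks are uncertain. The Spearman correlation across the 77 genes between MII and secondary follicle oocytes was 0.51 in culture and 0.24 in the animal, against 0.65 between culture secondary follicle oocytes and reaggregated PGCLCs and 0.69 between animal secondary follicle oocytes and E12.5 PGCs. Mrpl24, with 169 FPKM, was the highest member in animal MII oocytes, and Mrps23 the highest small subunit member there with 64.8 FPKM. Genes for proteins with a bacterial counterpart and genes for mitochondria-specific proteins had similar counts. In culture 30 of 46 genes with a counterpart were lower past 2-fold and 4 higher, and 21 of 30 mitochondria-specific genes were lower and 0 higher. In the animal the counts were 31 lower and 5 higher of 46, and 21 lower and 4 higher of 30. The shares of all genes in this step were 28.6% lower and 23.9% higher in culture, and 33.1% and 28% in the animal.

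By subunit, the MII step gave similar counts and, in the animal, unequal medians. In culture, 32 of 48 large subunit genes lay lower and 3 higher past 2-fold (median log2 ratio -1.80), as did 19 and 1 of 28 small subunit genes (-1.59). In the animal, 32 of 48 large subunit genes lay lower and 6 higher (median -1.94), as did 20 and 3 of 28 small subunit genes (-2.72). Beside these counts, 28.6% of all genes were lower and 23.9% higher in culture, and 33.1% and 28% in the animal. The large minus small difference of medians was -0.20 in culture and 0.78 in the animal. The culture difference turned to 0.12 with a pseudocount of 5 and to 0.16 under quantile normalization. The quartiles over genes overlapped widely, from -3.31 to -0.23 for the large and from -3.55 to -0.82 for the small subunit in the animal, and genes are not replicates, so no p is given. In the growth step the medians were -0.32 for the large and -0.31 for the small subunit in culture, and -0.74 and -0.47 in the animal. There 14 of 48 large subunit genes were lower and 4 higher in culture, and 6 of 28 small subunit genes were lower and 5 higher. In the animal 17 of 48 large subunit genes were lower and 1 higher, and 9 of 28 small subunit genes were lower and 1 higher. Lower genes thus made up 29.2% of the large and 21.4% of the small subunit in culture, beside 26.4% of all genes. The animal values were 35.4% and 32.1%, beside 25.9%. Higher genes were 25.2% of all genes in culture and 24.3% in the animal.

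The MII oocytes of both routes differed more than the earlier stages did. Of 76 genes, 18 were higher and 4 lower past 2-fold in culture than in animal MII oocytes, or 23.7% and 5.26%, beside 12.4% and 9.45% of all genes, 21.9% together. The median log2 ratio was 0.33, against 0.01 over all genes. It was 0.24 for the large subunit, with 10 of 48 genes higher and 3 lower, and 0.38 for the small subunit, with 8 of 28 higher and 1 lower. Scaling to equal sums, which moved the median of all genes to 0.23, gave 24 higher and 0 lower, and quantile normalization 14 higher and 2 lower with a median of 0.07. Cytosolic ribosomal protein genes were higher past 2-fold for 23 and lower for 0 of 79, with a median of 0.33. Of 10 granulosa and cumulus cell markers, 5 were above 1 FPKM in culture MII oocytes and 6 in animal MII oocytes. Their summed level was 65.9 FPKM in culture MII oocytes and 53.2 FPKM in animal MII oocytes, led by Cyp19a1 in each, and Fshr was listed at 0 in both. Single markers went both ways. Cyp19a1 had 27.1 FPKM in culture MII oocytes and 42.2 FPKM in animal MII oocytes. In the same order, Ptx3 had 0.787 and 1.82 FPKM and Amh 0.0509 and 0.297 FPKM. Inha had 19.3 and 2.55 FPKM, Gja1 9.72 and 2.94 FPKM, and Inhba 5.89 and 2.25 FPKM. Of 8 markers of gonadal stroma, 3 were above 1 FPKM in culture MII oocytes and 2 in animal MII oocytes, with sums of 94.3 and 67.6 FPKM. Gata4 made up most of these, with 76.7 FPKM in culture MII oocytes and 64.8 FPKM in animal MII oocytes. Vim had 14.9 FPKM in culture MII oocytes and 2.24 FPKM in animal MII oocytes, and Acta2 1.89 and 0.0797 FPKM. Pdgfra went the other way, with 0.141 FPKM in culture MII oocytes and 0.414 FPKM in animal MII oocytes. Col1a2 was listed at 0 in both MII groups and Col3a1 in the animal one. Their part in the result was not tested.

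Mrpl30, the counterpart of bacterial L30, headed the genes that were higher in culture, with 11.5 FPKM in culture MII oocytes and 0.648 FPKM in animal MII oocytes, a log2 ratio of 2.92. Mrpl33 had 8.00 FPKM in culture and 0.446 FPKM in the animal (2.64), and Mrps18c 5.52 FPKM in culture and 0.0727 FPKM in the animal (2.60). Mrpl28 had 13.5 FPKM in culture and 1.54 FPKM in the animal (2.51). All 18 genes were lower past 2-fold at MII than in the secondary follicle oocyte in both routes, so they differed in how low they were at MII. Of the 18, 10 were under 1 FPKM in animal MII oocytes, where a ratio depends most on the pseudocount, and with a pseudocount of 5 the counts were 8 higher and 2 lower. The 4 genes lower in culture were Mrpl9 with 16.5 FPKM in culture and 46.1 FPKM in the animal (-1.43), Mrpl50 with 5.47 and 13.4 FPKM, Mrpl2 with 32.8 and 74.0 FPKM, and Mrps14 with 27.9 and 60.2 FPKM. The lowest of these values was the 5.47 FPKM of Mrpl50 in culture.

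**Figure D5:**
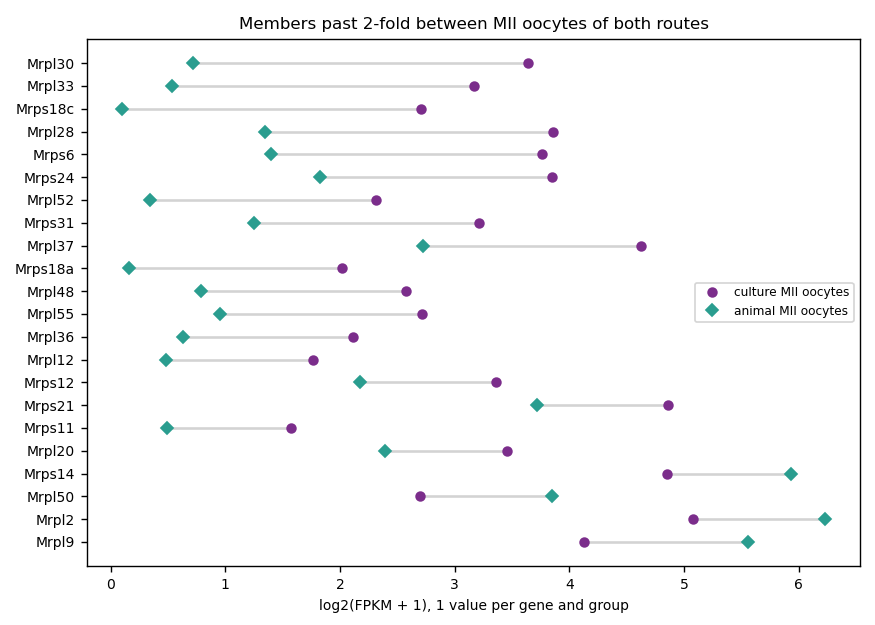
Level as log2(FPKM + 1) of the 22 genes that passed 2-fold between MII oocytes of culture (purple circles) and of the animal (green diamonds), with genes ordered by the log2 ratio of culture over animal. The 18 genes at the top were higher in culture, led by Mrpl30, and the 4 at the bottom, Mrps14, Mrpl50, Mrpl2 and Mrpl9, lower.

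Further proteins of the mitochondrial ribosome lie outside the Mrpl and Mrps names. Of 6 such genes, 1 was higher and 4 lower past 2-fold in the MII step of each route (66.7% lower), beside 28.6% of all genes lower and 23.9% higher in culture and 33.1% and 28% in the animal. Ict1, a peptidyl-tRNA hydrolase built into the large subunit, had 1.40 FPKM in culture MII oocytes against 69.1 in culture secondary follicle oocytes, and 1.19 FPKM in animal MII oocytes against 75.1 in animal secondary follicle oocytes. Aurkaip1, of the small subunit, had 5.43 FPKM against 59.9 in the culture step and 2.08 FPKM against 62.7 in the animal step. Ptcd3, a pentatricopeptide repeat protein of the small subunit, was the 1 higher, with 26.8 FPKM against 11.5 in the culture step and 62.1 FPKM against 11.2 in the animal step. Like Mrpl3 it was lower past 2-fold in the growth step of both routes (-1.55 and -1.65). Gadd45gip1, of the large subunit, was higher past 2-fold in the growth step, with 136 FPKM in culture secondary follicle oocytes against 31.9 in reaggregated PGCLCs, and 133 FPKM in animal secondary follicle oocytes against 38.5 in E12.5 PGCs.

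The factors that build the ribosome and drive its translation also held genes of both directions. In the MII step 28.6% of all genes were lower and 23.9% higher in culture, and 33.1% and 28% in the animal. Of 21 assembly factors, 13 were lower and 1 higher past 2-fold in the MII step in culture, and 12 lower and 4 higher in the animal. Of 16 translation factors, 10 were lower and 2 higher in each route. Malsu1, which keeps the unfinished large subunit from joining, had 3.16 FPKM in culture MII oocytes against 22.6 in culture secondary follicle oocytes, and 0.376 FPKM in animal MII oocytes against 29.6 in animal secondary follicle oocytes. Gtpbp10, a GTPase of large subunit assembly, had 13.0 FPKM against 0.543 in the culture step and 38.0 FPKM against 0.773 in the animal step (3.18 and 4.46). Gfm1, the elongation factor that moves the ribosome along the messenger, had 71.8 FPKM against 18.0 in the culture step and 152 FPKM against 17.7 in the animal step. Tsfm, which recharges the other elongation factor, had 91.4 FPKM against 29.4 in the culture step and 174 FPKM against 22.0 in the animal step. The transcripts of both were thus higher at MII in the same oocytes in which most transcripts for mitochondrial ribosomal proteins were lower. Tufm, the factor that Tsfm recharges, was lower, with 0.0654 FPKM against 2.86 in the culture step and 0 FPKM against 2.54 in the animal step.

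The genes are spread over 17 chromosomes, with at most 10 on one (chromosome 11). Of those tested, 67 matched a promoter of 300 bases (250 before to 50 after the start) in RefSeq, build GRCm38.p6. The word CCGGAAG, bound by ETS family factors, was found on either strand in 25 of the 67 (37.3%), against 18.5% of the 10685 tested genes with a promoter. The YY1 core AAGATGG was in 13 (19.4%) against 8.25%, and GCGCATG, from the word of the respiratory gene factor NRF1, in 8 (11.9%) against 7.72%. Some genes have more than 1 promoter, and a gene counts once under each word that any of its promoters holds. At least 1 of the 3 was in 54.8% of 42 large and 56% of 25 small subunit genes, against 30.5% of all genes with a promoter. It was in 7 of the 12 genes above 0 at MII in both routes (58.3%) and in 25 of 44 matched genes lower past 2-fold in both (56.8%). These shares are close to each other. The promoters of Mrpl3, which was higher at MII (chr9:105053018-105053317, plus strand), and of Mrps18a, which was lower (chr17:46110754-46111053, plus strand), are shown because both hold the ETS word. It is in capitals, and so is the YY1 core that follows it in Mrps18a.
Mrpl3: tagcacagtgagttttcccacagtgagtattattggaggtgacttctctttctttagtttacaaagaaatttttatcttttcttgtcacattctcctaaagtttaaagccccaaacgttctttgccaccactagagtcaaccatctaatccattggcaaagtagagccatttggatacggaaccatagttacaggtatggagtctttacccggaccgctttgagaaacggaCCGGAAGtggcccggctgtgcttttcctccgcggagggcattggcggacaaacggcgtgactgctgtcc
Mrps18a: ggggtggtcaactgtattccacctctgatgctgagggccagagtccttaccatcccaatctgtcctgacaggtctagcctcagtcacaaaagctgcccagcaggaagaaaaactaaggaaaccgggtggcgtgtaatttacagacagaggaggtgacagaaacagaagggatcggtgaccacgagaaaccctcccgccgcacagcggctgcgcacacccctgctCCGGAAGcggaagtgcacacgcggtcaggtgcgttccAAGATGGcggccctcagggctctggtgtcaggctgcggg

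In maturing oocytes, elements near the end of a transcript, the cytoplasmic polyadenylation elements, are known to lengthen poly(A) tails. The words TTTTAT or TTTTAAT were searched on the sense strand in the last 100 bases of the 3′ untranslated region of 1 GENCODE M21 transcript per gene, or in all of it where it is shorter. One of them was found in 4 of the 12 genes above 0 at MII in both routes (33.3%) and in 6 of the 51 lower past 2-fold in both (11.8%). Over all genes tested the same classes had 30.3% of 5055 and 8.7% of 3437. The share in each class of mitoribosome genes was therefore near that of all genes in the same class, on 12 and 51 genes. A match is a description of letters, and no use of these sites was measured. The 30 bases around the element are shown for the 4 genes above 0 at MII, Mrpl44, Mrpl50, Mrpl53 and Mrps14, and for Mrps10 and Mrps18b, which were lower, with the element in capitals.
Mrpl44: cagctagatgtaTTTTATtccctccagctt
Mrpl50: aatgaaattcacTTTTATgtatcactttat
Mrpl53: aaccaagtacaTTTTAATtaaatatttatt
Mrps14: tcccaggtTTTTATgttctatgcatctact
Mrps10: ccattcattcctTTTTATttctggaactca
Mrps18b: tcctggctcagcTTTTATacaataaagctg

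Transcripts of the 12 genes above 0 at MII were longer, with a median of 1566 bases against 1134 for the 51 lower in both routes, and the same order held over all genes with 3430 against 2492 bases. The Spearman correlation of transcript length with the log2 ratio of the MII step was 0.25 in culture and 0.35 in the animal across the 76 genes, and 0.20 and 0.21 across 13008 genes. Genes share the libraries, so these values are descriptions.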

How the data were processed

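Per the labels, directional poly(A) libraries from 23 samples were sequenced on a HiSeq2000. Per the submitters' processing notes, the tools were TopHat2, Bowtie2 2.0.13, Cufflinks and Cuffdiff 2.2.1 with genome build mm10. The values deposited by the authors are FPKM, 1 per gene and group, so the spread between samples could not be used, and the strand setting, the handling of multiply mapped reads and the depth are not given in the sources used here. FPKM were taken as log2(FPKM + 1) over the 14242 genes with at least 1 FPKM in 1 group, and genes were called at a difference of 1. Groups followed the labels, and 9 comparisons were made without a test. The members and the 5 further lists (71 symbols, 5 found by synonym) were chosen with earlier results of these data known. The genes named had 10 FPKM in some group and were the 4 highest and 4 lowest ratios of a comparison, the 5 highest and 5 lowest mean levels per subunit, a few fixed for their role, and up to 3 called genes of each further list; any others were named after their values were seen. Coordinates and promoters are from RefSeq (GRCm38.p6), transcripts and pseudogene names from GENCODE M21 (GRCm38), and the promoter words were set after values were seen. Alternatives were pseudocounts (0.1 and 5), other floors (5 FPKM, or no floor), quantile normalization, equal sums, median centring, and subunits by structure. The steps were tested on simulated data with Python 3.11.15, pandas 2.3.3, NumPy 2.4.6 and matplotlib 3.10.9.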

Additional observations from a re-analysis of the deposited data

How the results depend on the processing

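No paired analysis was possible because each group has 1 value per gene, and leaving out replicates was not run for the same reason. The number of genes past 2-fold became 1 for the culture against animal secondary follicle oocytes with a pseudocount of 0.1, and 10 for culture against animal MII oocytes with a pseudocount of 5. For day 6 PGCLCs over ES cells it was 2 with a pseudocount of 0.1, 0 with 5 and 3 under quantile normalization. For reaggregated over day 6 PGCLCs it was 2, 0 and, with equal sums, 0. In the other comparisons the number of higher plus lower genes stayed within 1.5 times. The number of higher genes alone did not. In the MII step it went from 9 to 1 in the animal and from 4 to 1 in culture with equal sums. Under quantile normalization it was 3 in the animal and 2 in culture. In the growth step in culture it went from 9 to 3 with equal sums, and in the animal it stayed at 2.

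The large minus small subunit difference of median log2 ratios was less stable. For culture over animal MII oocytes it was -0.15, and -0.23 and -0.11 with pseudocounts of 0.1 and 5, -0.12 with the filter of 5 FPKM, -0.09 under quantile normalization, -0.22 with equal sums and -0.11 with subunits by structure. For the MII step in culture it was -0.20, and in the same order -0.09, 0.12, -0.24, 0.16, -0.17 and -0.21, with -0.26 without a filter. For the MII step in the animal it was 0.78, and the same with subunits by structure. It was 1.13 and 0.50 with pseudocounts of 0.1 and 5, and 0.73 with the filter of 5 FPKM. Under quantile normalization it was 0.57, with equal sums 0.79 and without a filter 0.71. The animal difference kept its sign in all of these and the culture difference did not. The median of the genes for day 6 PGCLCs over ES cells turned to 0.04 with equal sums, and Mrpl18 in the MII step in culture to -0.02 under quantile normalization. The cause was not tested. Depth is unknown, and values under 1 FPKM carry the least weight.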

Other observations

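The enzymes that charge mitochondrial transfer RNAs were counted in both oocyte steps. Of 17 such synthetases, 9 were lower and 1 higher past 2-fold in culture secondary follicle oocytes than in reaggregated PGCLCs, and 8 were lower and 1 higher in animal secondary follicle oocytes than in E12.5 PGCs. Over all genes, 26.4% were lower and 25.2% higher in that step in culture, and 25.9% and 24.3% in the animal. At MII, 12 of the 17 were lower and 0 higher in culture, and 13 lower and 1 higher in the animal, beside 28.6% of all genes lower and 23.9% higher in culture and 33.1% and 28% in the animal. Fars2, which charges phenylalanine, was the 1 higher in the first step, with 47.3 FPKM in culture secondary follicle oocytes against 14.3 in reaggregated PGCLCs, and 44.2 FPKM in animal secondary follicle oocytes against 13.4 in E12.5 PGCs. Mars2, for methionine, had 1.36 FPKM in culture MII oocytes and 8.58 FPKM in animal MII oocytes, a log2 ratio of -2.02.

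Of 10 genes for the upkeep and transcription of mitochondrial DNA, 6 were lower and 1 higher at MII in culture and 7 lower and 1 higher in the animal, beside the same shares of all genes. Tfam, which packs the mitochondrial genome, had 1.06 FPKM in culture MII oocytes against 22.2 in culture secondary follicle oocytes, and 0.161 FPKM in animal MII oocytes against 29.1 in animal secondary follicle oocytes. Polrmt, the mitochondrial RNA polymerase, had 0.661 FPKM against 25.4 in the culture step and 0.306 FPKM against 19.1 in the animal step. Tfb2m, a partner of that polymerase in starting transcription, was higher, with 8.83 FPKM against 1.02 in the culture step and 13.4 FPKM against 0.771 in the animal step.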
